A study of Mus musculus with 8 samples.

Results

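The BCL2 family sets whether a cell starts the mitochondrial route of apoptosis, and 10 of its genes were followed here: Bcl2, Bcl2l1, Mcl1, Bax, Bak1, Bcl2l11, Bad, Bid, Bbc3 and Pmaip1. They were found by the gene name printed beside each probe on the array, and all their probes were kept, 19 of 41174 on the array, for 10 of its 27961 names. The samples were 3 GFP immunoprecipitates (GFP IP), 2 PABP1 immunoprecipitates (PABP1 IP) and 3 inputs, each on 1 array. All came from mouse embryonic stem cells (ES cells) of the transgenic line Dazl-GFP, which had been derived again, kept on γ-irradiated mouse embryonic fibroblasts in medium with 15% fetal bovine serum, leukemia inhibitory factor, 1 µM of the MEK inhibitor PD0325901 and 3 µM of the GSK3β inhibitor CHIR99021, the pair called 2i. RNA was recovered from native lysate, without crosslinking, with an anti-GFP antibody for the GFP IP and with an anti-PABP1 antibody for the PABP1 IP, while input was total RNA with no antibody. The study asked which RNAs are bound by DAZL, an RNA-binding protein of germ cells. PABP1 coats poly(A) tails, which most mRNAs carry. Control-antibody IPs were not analysed here, and bound RNA cannot be told apart from RNA held by the beads or the antibody. The sources used here do not say if the line makes a DAZL protein fused to GFP or GFP alone as a reporter, and all groups come from 1 line.

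BCL2 family proteins act at the outer mitochondrial membrane. Survival members (Bcl2, Bcl2l1, which encodes BCL-XL, and Mcl1) hold the pore formers Bax and Bak1 in check. BH3-only members (Bcl2l11, which encodes BIM, Bad, Bid, Bbc3, which encodes PUMA, and Pmaip1, which encodes NOXA) sense stress, occupy the survival proteins or activate the pore formers. Once the pore opens, cytochrome c leaves the mitochondrion and caspases are switched on. Pluripotent cells are known to start this route readily after damage.

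Levels below are log2 processed signal minus the 75th percentile of the same array, so 0 is the signal that 75% of probe spots stay under, and levels of different probes cannot be set against each other. A difference in level is a difference in the share that an mRNA takes of the RNA on the array, not in its amount per cell. On each array 41.5% to 52.6% of 43379 probe spots were well above background, and no spot was saturated. Arrays of a group correlated at 0.973 to 0.992 across the 20625 tested probes, which are not independent replicates, against 0.889 to 0.921 between GFP IP and input, 0.874 to 0.901 between PABP1 IP and input and 0.843 to 0.892 between GFP IP and PABP1 IP. The arrays lay on 2 slides, each with at least 1 array of each group. All 10 ES cell markers, among them Pou5f1, Nanog and Sox2, were above background on every array. Markers of the feeder fibroblasts were also present, 10 to 12 of 12 on each array, with a summed signal of 77.0 to 112 times the 75th percentile in the GFP IP, 300 to 358 in the PABP1 IP and 180 to 235 in input.

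The precipitates differed in Dazl mRNA itself. Dazl probe A_52_P271166 stood at 3.13, 3.84 and 3.27 on the GFP IP arrays, −2.12 and −2.09 on the PABP1 IP arrays and −0.23, −0.36 and −0.61 on the input arrays. It was higher by 3.81 ± 0.21 (SE) in the GFP IP than in input (limma, adjusted p = 2.07e-05). These values concern the mRNA and do not show how much protein each antibody recovered. Pabpc1 probe A_51_P119106, for the gene of PABP1, was not past the threshold between GFP IP and input (−0.86 ± 0.61, adjusted p = 0.248) or between PABP1 IP and input (0.22 ± 0.68, adjusted p = 0.797). Its levels were 8.60 on the GFP IP array, 9.32 on the PABP1 IP array and 8.55 and 8.83 on the input arrays of slide 1, against 7.05 and 6.78, 7.79 and 7.62 in the same order of groups on slide 2.

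Set against input, the GFP IP held more signal on probes of Pmaip1, Bbc3, Bcl2l11 and Mcl1 and less on probes of Bax, Bak1 and Bcl2l1. Only 1 probe of Mcl1 and 1 of Bcl2l1 were called, and their other probes were not past the threshold. The Bax difference, −0.39, was close to the median of all tested probes. Pmaip1, the NOXA gene, had the largest difference of the 16 tested probes. Of these 16 probes, 5 were higher and 6 lower in the GFP IP (limma over all probes, adjusted p under 0.05), where 24.2% of all 20625 tested probes were higher and 39.1% lower. A share of 31.25% higher and 37.5% lower lies near that background. The members' median difference was −0.03, beside −0.38 over all tested probes. Of the 6 lower probes, 1 of Bad and 1 of Bcl2l11 were not well above background in either group, so they give neither a fold nor a direction. Before scaling, that Bad probe read 5.39, 6.39 and 8.02 in the GFP IP and 4.59, 5.47 and 5.68 in input. That Bcl2l11 probe read 5.05, 3.51 and 4.62 in the GFP IP and 3.08, 3.6 and 4.8 in input.

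In the PABP1 IP, probes of Bax, Bid, Bbc3, Bad, Bcl2l11 and Mcl1 were higher than in input, and 1 Mcl1 probe was lower. The counts were 8 higher and 1 lower of 16, with a background of 34.5% higher and 25.9% lower. Of the 8 higher probes 6 were BH3-only, as were 8 of the 16 tested, but the filter fixed the direction of some. Those were both Bad probes and 1 of Bcl2l11. Bbc3, Bid and Bcl2l11 A_51_P484880 were the other higher ones, while Pmaip1 and Bcl2l11 A_52_P158527 were not past the threshold. The members' median difference was 0.72, beside 0.22 over all tested probes. For 3 of the higher probes (both of Bad, 1 of Bcl2l11), the PABP1 IP was the only group with signal above background, so these passed the filter on dim probes through that group alone and had to stand higher there. A probe passed where all arrays of at least 1 group were above background, and 5 of the 16 did so in 1 group only, 4 in the PABP1 IP and 1 in the GFP IP. Of the other 11 probes, 5 were higher and 1 lower in the PABP1 IP than in input, and 5 higher and 3 lower in the GFP IP than in input.

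Between the precipitates, Bax, both Bak1 probes, both Bad probes, Bid, and probes of Bcl2l11, Bcl2l1 and Mcl1 were lower, while Pmaip1 and 1 probe each of Bcl2l11 and Mcl1 were higher. The counts were 3 higher and 10 lower of 16, where 26.6% of all tested probes were higher and 43.7% lower, and the members' median difference was −1.23, beside −0.52 over all tested probes. Of the 10 lower probes, 4 had passed the filter through the PABP1 IP alone, and of the 11 probes that passed in more than 1 group, 3 were higher and 6 lower. Feeder fibroblast markers ran the same way, with 3 of 19 tested probes higher and 14 lower in the GFP IP than in the PABP1 IP. Against input, 1 was higher and 14 lower in the GFP IP. Of these 19 probes, 1 had passed the filter through the PABP1 IP alone and 2 through input alone. Of the other 16 feeder probes, 3 were higher and 12 lower than in the PABP1 IP, and 1 higher and 11 lower than in input. Their part in the family's differences was not tested. Less feeder RNA recovered with an antibody, fewer cells of a type and less RNA per cell cannot be told apart in these bulk samples. The comparisons share arrays: the inputs serve both IPs, and each IP serves 2 comparisons.

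**Figure D1:**
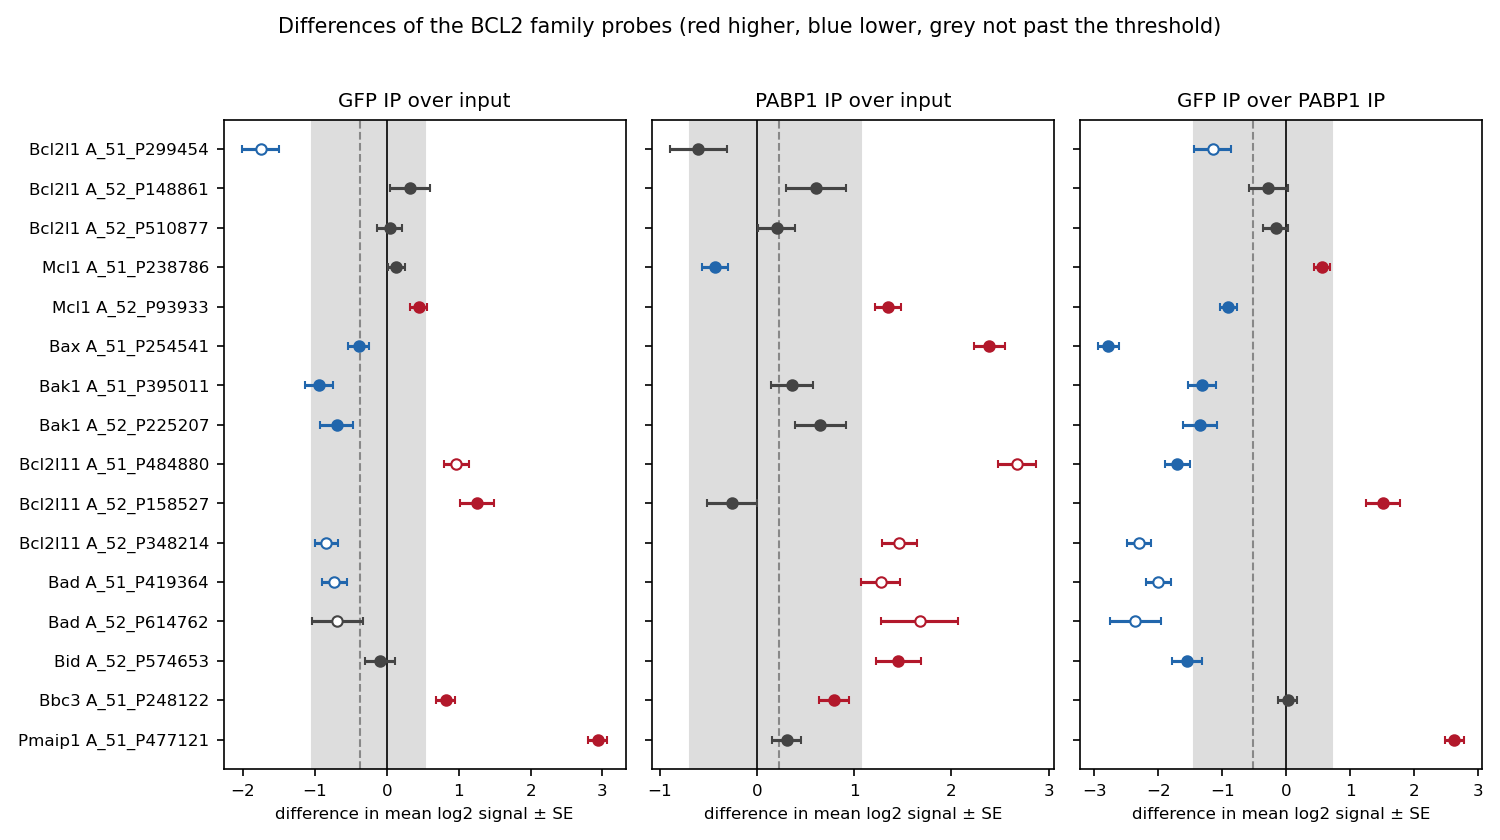
Difference in mean log2 signal (x axis, ± SE) of the 16 tested BCL2 family probes (rows) for the GFP IP over input, the PABP1 IP over input and the GFP IP over the PABP1 IP. Open points had no array above background in at least 1 of the 2 groups; the dashed line is the median of all 20625 tested probes (−0.38, 0.22 and −0.52) and the grey band runs between their 25th and 75th percentiles. Pmaip1 stands farthest to the right in the left and right panels, and Bax farthest to the left in the right panel.

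Scaling bears on these directions. When arrays were scaled to the median of their probe spots, the median difference of all tested probes between GFP IP and input moved to 0.16, from −0.38 with the 75th percentile. The higher share of all called probes for that comparison was then 64.3%, against 38.2%, and was 47.4% after quantile normalization. For the GFP IP over the PABP1 IP the higher share was 37.8%, against 52.0% with the median and 52.3% with the percentile taken over the 15106 probes detected on all arrays. For the PABP1 IP over input it was 57.1%, against 46.9% with that last scaling. Background correction by normexp, which also added an offset of 50 to each spot, ended most of the members' calls. An added constant by itself shrinks the log2 differences of dim probes, and its part in the lost calls was not tested. Bcl2l11 A_51_P484880, with signals of 3.96 to 7.21 in input, went from 2.67 to 0.27 for the PABP1 IP over input. Normexp left 1 higher and 0 lower of 16 for the GFP IP over input (limma, also 0 lower at an unadjusted p under 0.05), 3 higher and 0 lower (likewise 0) for the PABP1 IP over input, and 2 higher and 3 lower for the GFP IP over the PABP1 IP. The calls it left were those of Pmaip1 (2.67, adjusted p = 0.0221, for the GFP IP over input), Bax, Bid, Bak1 A_51_P395011, Mcl1 A_52_P93933 and Bcl2l11 A_52_P158527. Each member's difference stands beside that of the median probe in the plot of differences.

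Of the 5 tested probes of the survival genes, 1 was higher and 1 lower in the GFP IP than in input, 1 higher and 1 lower in the PABP1 IP than in input, and 1 higher and 2 lower in the GFP IP than in the PABP1 IP, beside the shares of all tested probes given above. Bcl2, the founding member, was not measurable: its 3 probes were above background on at most 1 array of each group and were not tested. Its probe A_52_P534870, with 10 spots, lay between −6.07 and −4.62 on all 8 arrays and was above background on none.

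Bcl2l1 probe A_52_P148861, also with 10 spots, read −0.35, −1.02 and −0.43 in the GFP IP, −0.53 and −0.12 in the PABP1 IP and −1.13, −1.22 and −0.44 in input. The groups overlapped, and the arrays of slide 2 read higher than those of slide 1 within every group. The differences were 0.33 ± 0.28 for the GFP IP over input (adjusted p = 0.325), 0.61 ± 0.31 for the PABP1 IP over input (adjusted p = 0.128) and −0.28 ± 0.31 for the GFP IP over the PABP1 IP (adjusted p = 0.436). With slide as a block, the PABP1 IP was above input (0.51, adjusted p = 0.0057) and the GFP IP below the PABP1 IP (−0.38, adjusted p = 0.0167). Its spots on 1 array spread with an SD of 0.068 to 0.463 (log2).

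A second Bcl2l1 probe, A_51_P299454, behaved otherwise. Its levels were −4.42, −4.20 and −4.67 in the GFP IP, −2.79 and −3.77 in the PABP1 IP and −2.70, −2.52 and −2.80 in input. No GFP IP array was above background, while both PABP1 IP arrays and 2 of 3 input arrays were. A group with no array above background gives only a bound, taken against the lowest signal that was well above background on each of its arrays or the probe's own signal if higher. By that bound, with the scaling of the main fit, the GFP IP was at least 2.65-fold lower than input. It was at least 1.74-fold lower than the PABP1 IP, the group through which alone the probe passed the filter. All bounds given here were taken with that scaling and all arrays, and can be smaller otherwise. The fitted difference from input, which used GFP IP signals not above background, was −1.75 ± 0.26 (limma, adjusted p = 0.000953). That difference was −1.57 when detected probes set the percentile, −1.22 with median scaling, −1.23 after quantile normalization and −0.31 with normexp. The fitted difference of the GFP IP from the PABP1 IP, −1.15, was −0.66 without PABP1 IP replicate 1. With all arrays it was −0.69 with median scaling, −0.72 after quantile normalization, −0.72 when detected probes set the percentile and 0.12 with normexp. The PABP1 IP over input was −0.60 ± 0.29 (adjusted p = 0.113), and it passed the threshold with slide as a block (−0.53, adjusted p = 0.0492), within slide 2 (−0.97, adjusted p = 0.0335) and without PABP1 IP replicate 1 (−1.09, adjusted p = 0.00974), while it was −0.17 within slide 1 (adjusted p = 0.478) and −0.11 without PABP1 IP replicate 2 (adjusted p = 0.71). The remaining probe, A_52_P510877, was near its limit, above background on 3 GFP IP arrays, 1 PABP1 IP array and 1 input array. Its differences of 0.04, 0.20 and −0.16, in the order used above, had adjusted p of 0.856, 0.399 and 0.463. All 3 Bcl2l1 probes carry the same transcript accession in the files.

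Mcl1, whose short-lived protein is a main guard of early embryonic cells, was read differently by its probes. Probe A_51_P238786 gave 6.85, 6.87 and 6.72 in the GFP IP, 6.30 and 6.21 in the PABP1 IP and 6.80, 6.69 and 6.56 in input. The PABP1 IP was lowest on this probe, and its arrays did not overlap either other group. The difference was 0.56 ± 0.13 for the GFP IP over the PABP1 IP (adjusted p = 0.00676) and −0.43 ± 0.13 for the PABP1 IP over input (adjusted p = 0.0242). The call of the PABP1 IP over input was lost when any 1 of 4 arrays was left out: −0.37 without input replicate 1 (adjusted p = 0.0622), −0.43 without input replicate 2 (adjusted p = 0.0669), −0.47 without PABP1 IP replicate 1 (adjusted p = 0.0695) and −0.39 without PABP1 IP replicate 2 (adjusted p = 0.12). Between GFP IP and input the difference was 0.13 ± 0.12 (adjusted p = 0.354), and it passed the threshold with median scaling (0.66, adjusted p = 0.00929) and with quantile normalization (0.71, adjusted p = 0.000691).

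Mcl1 probe A_52_P93933 had the PABP1 IP highest. It stood at 3.37, 3.30 and 3.38 in the GFP IP, 4.22 and 4.28 in the PABP1 IP and 2.89, 2.77 and 3.06 in input, with no overlap between any groups. The PABP1 IP was above input by 1.34 ± 0.13 (adjusted p = 0.000137) and the GFP IP by 0.44 ± 0.12 (adjusted p = 0.0143). That smaller call was lost without input replicate 2 (0.37, adjusted p = 0.0596) and without GFP IP replicate 3 (0.42, adjusted p = 0.0543). Between the IPs the GFP IP was lower, by −0.90 ± 0.13 (adjusted p = 0.000702), a call lost with median scaling (−0.44, adjusted p = 0.142).

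The disagreement can be put free of scaling as the log2 ratio of the probe pair on the same array. For A_51_P238786 over A_52_P93933 this ratio averaged 3.47 in the GFP IP (3.34 to 3.58), 2.00 in the PABP1 IP (1.93 and 2.08) and 3.78 in input (3.50 to 3.91). The PABP1 IP differed from input by −1.77 and the GFP IP from the PABP1 IP by 1.46, each with p = 0.1 in an exact two-sided permutation test, the smallest that 3 against 2 arrays can give. The GFP IP and input ratios overlapped (difference −0.31, exact permutation p = 0.2). Over the 27 such comparisons of probe pairs, the lowest Benjamini-Hochberg value was 0.245. None could pass the threshold whatever the ratios, because no exact p with these group sizes can fall below 0.1. The adjusted values therefore cannot decide whether the ratios differ between groups. Both Mcl1 probes carry the same transcript accession, and which part of the transcript each one reads was not analysed here.

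**Figure D2:**
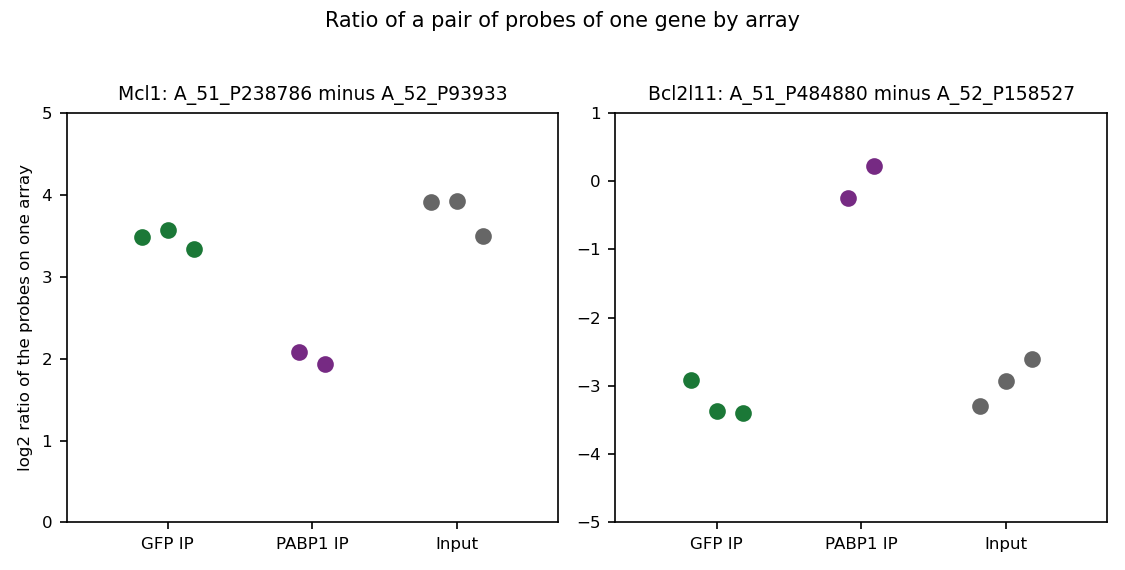
Log2 ratio (y axis) of a pair of probes of one gene on each array, for Mcl1 (left) and Bcl2l11 (right), by group (x axis); a point is 1 array. The PABP1 IP arrays stand apart from the GFP IP and input arrays in both panels, at 1.93 and 2.08 for Mcl1 and at −0.25 and 0.23 for Bcl2l11.

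Bax and Bak1, whose proteins form the pore, were lower in the GFP IP than in the PABP1 IP on every probe. Bax, whose protein moves from the cytosol to the mitochondrion when activated, stood at 4.59, 4.68 and 4.70 in the GFP IP, 7.58 and 7.29 in the PABP1 IP and 5.20, 5.09 and 4.85 in input. The PABP1 IP arrays lay far above both other groups, and the GFP IP arrays lay just below the lowest input. The PABP1 IP was 5.24-fold higher than input (log2 2.39 ± 0.16, adjusted p = 3.34e-05), and the GFP IP differed from the PABP1 IP by −2.78 ± 0.16 (adjusted p = 1.37e-05), a value with 2.80% of tested probes at or below it. Bax rests on 10 spots per array, whose SD was 0.047 to 0.098 on each array.

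Bax between GFP IP and input was a small difference, −0.39 ± 0.14 (adjusted p = 0.0453), which is close to the median of all tested probes, −0.38. It changed sign with median scaling (0.14, adjusted p = 0.462) and was 0.11 in the authors' deposited table of group means. It was also past the threshold no longer without input replicate 1 (−0.31, adjusted p = 0.13), input replicate 2 (−0.37, adjusted p = 0.12), GFP IP replicate 1 (−0.36, adjusted p = 0.116), GFP IP replicate 2 (−0.40, adjusted p = 0.0838) or GFP IP replicate 3 (−0.41, adjusted p = 0.0933). Within slide 1 the difference was −0.47 (adjusted p = 0.103) and within slide 2 it was −0.20 (adjusted p = 0.398).

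Bak1, whose protein sits in the mitochondrial membrane from the start, was lower in the GFP IP than in the PABP1 IP on both probes. Probe A_51_P395011 read 3.25, 3.03 and 2.77 in the GFP IP, 4.48 and 4.18 in the PABP1 IP and 4.24, 3.94 and 3.71 in input. All GFP IP arrays were below all others on this probe. Its difference from input was −0.95 ± 0.19 (adjusted p = 0.00423) and from the PABP1 IP −1.31 ± 0.22 (adjusted p = 0.00126), while the PABP1 IP over input was 0.36 ± 0.22 (adjusted p = 0.186). With median scaling the difference from input was −0.41 (adjusted p = 0.118).

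On Bak1 probe A_52_P225207 the levels were −1.50, −1.77 and −1.91 in the GFP IP, −0.29 and −0.46 in the PABP1 IP and −0.94, −1.50 and −0.65 in input. The GFP IP was below the PABP1 IP by −1.35 ± 0.26 (adjusted p = 0.00268), close to the other probe's value. Against input it was lower by −0.70 ± 0.23 (adjusted p = 0.0333), with 1 input array at the level of the highest GFP IP array. The difference was −0.16 with median scaling (adjusted p = 0.668), −0.53 after quantile normalization (adjusted p = 0.1) and −0.52 when probes detected on all arrays set the percentile (adjusted p = 0.0959), no longer past the threshold. That call was also lost without input replicate 1 (−0.65, adjusted p = 0.0898), input replicate 3 (−0.50, adjusted p = 0.0818), GFP IP replicate 2 (−0.67, adjusted p = 0.0747) or GFP IP replicate 3 (−0.61, adjusted p = 0.105).

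**Figure D3:**
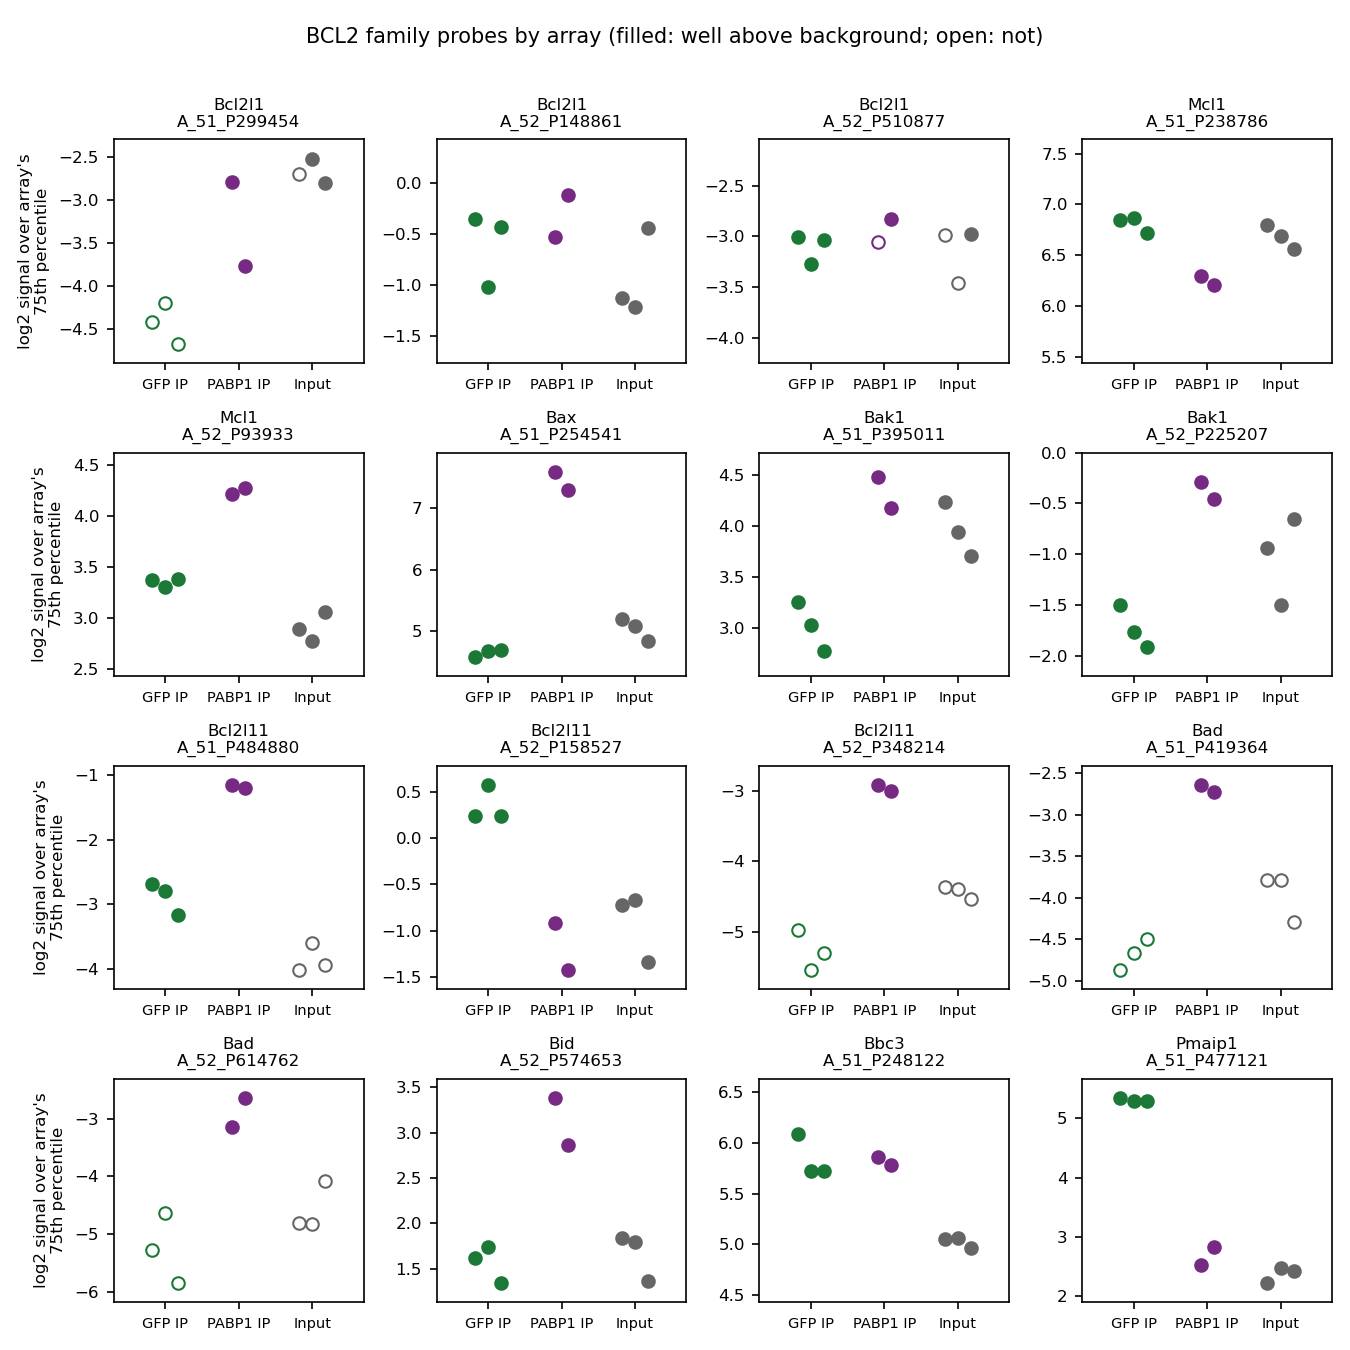
Level (y axis, log2 signal minus the 75th percentile of the array, its own range in each panel) of the 16 tested BCL2 family probes by group (x axis); a point is 1 array, filled where the probe was well above background and open where it was not. Pmaip1 is high on all 3 GFP IP arrays (5.29 to 5.34), Bax on both PABP1 IP arrays (7.29 and 7.58), and both Bad probes are above background on the PABP1 IP arrays alone.

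Among the BH3-only genes, Pmaip1 stood apart from the others in the GFP IP. Its product NOXA, induced by p53 among other factors, binds chiefly MCL1 and speeds its loss. Pmaip1 probe A_51_P477121 gave 5.34, 5.29 and 5.30 in the GFP IP, 2.53 and 2.83 in the PABP1 IP and 2.22, 2.48 and 2.42 in input. The 3 GFP IP arrays lay within a narrow range, far above all other arrays. The GFP IP was 7.65-fold higher than input (log2 2.94 ± 0.13, adjusted p = 1.48e-05) and 6.19-fold higher than the PABP1 IP (log2 2.63 ± 0.15, adjusted p = 1.33e-05). The PABP1 IP over input was 0.31 ± 0.15 (adjusted p = 0.112). With each array left out in turn, the difference from input was 2.86 to 2.99 and stayed past the threshold, it was 2.94 within slide 1 and 2.90 within slide 2, and it was 3.48 in the authors' deposited table. It lay at the 98.7th percentile of all tested probes.

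By the Euclidean distance between centred levels over the 8 arrays, the tested genes nearest to Pmaip1 were Rnf2 (distance 0.229), Tceanc (0.272), Ppp1r3b (0.273), Api5 (0.311) and Aasdhppt (0.354). Their differences for the GFP IP over input were 2.85 to 2.99. Rnf2 encodes a Polycomb ubiquitin ligase and Api5 an inhibitor of apoptosis. The ranking is a description of these arrays.

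Bbc3, whose product PUMA is a p53 target that binds all survival members, was higher in both precipitates. It read 6.09, 5.72 and 5.72 in the GFP IP, 5.86 and 5.78 in the PABP1 IP and 5.05, 5.06 and 4.97 in input. Every IP array was above every input array, and the IPs overlapped. The GFP IP was above input by 0.82 ± 0.14 (adjusted p = 0.00175) and the PABP1 IP by 0.79 ± 0.15 (adjusted p = 0.00336). The call for the PABP1 IP was lost after quantile normalization (0.29, adjusted p = 0.0979). Both calls were lost with normexp, at 0.71 for the GFP IP (limma, adjusted p = 0.389) and 1.08 for the PABP1 IP (adjusted p = 0.195). Between the IPs the difference was 0.02 ± 0.15 (adjusted p = 0.902). That value was 0.95 after quantile normalization (adjusted p = 0.000664) and 0.46 with the percentile over probes detected on all arrays (adjusted p = 0.0189).

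Bid, whose protein is cut by caspases of the death receptor route and then moves to mitochondria, was higher in the PABP1 IP. Bid read 1.62, 1.74 and 1.34 in the GFP IP, 3.38 and 2.86 in the PABP1 IP and 1.84, 1.79 and 1.36 in input. GFP IP and input arrays overlapped, below both PABP1 IP arrays. The PABP1 IP was above input by 1.46 ± 0.23 (adjusted p = 0.00126) and the GFP IP below the PABP1 IP by −1.55 ± 0.23 (adjusted p = 0.000752). The GFP IP over input was −0.09 ± 0.21 (adjusted p = 0.709), with a sign that turned under median scaling (0.44, adjusted p = 0.0525).

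Bad, whose protein is held inactive by survival kinases, was above background on both PABP1 IP arrays and on no other array. Probe A_51_P419364 stood at −4.87, −4.67 and −4.50 in the GFP IP, −2.64 and −2.72 in the PABP1 IP and −3.79, −3.78 and −4.29 in input. Probe A_52_P614762 stood at −5.27, −4.63 and −5.85, then −3.14 and −2.64, then −4.80, −4.82 and −4.07 for the same groups. The probes agreed that the PABP1 IP was highest. The PABP1 IP was at least 1.60-fold and at least 1.39-fold higher than input by these probes. The GFP IP was at least 2.65-fold and at least 2.30-fold lower than the PABP1 IP. Both probes entered the test through the PABP1 IP alone, so these bounds describe the arrays and carry no p. For probe A_52_P614762, the PABP1 IP over input was 1.67 in the fit. Without PABP1 IP replicate 2, which leaves 1 array in that group, it was 1.42.

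Bcl2l11, whose product BIM is a broad activator, gave opposite orders on its probes. Probe A_52_P158527 had the GFP IP highest, at 0.24, 0.57 and 0.24, with −0.91 and −1.42 in the PABP1 IP and −0.72, −0.67 and −1.33 in input. On this probe the PABP1 IP and input overlapped. The GFP IP was 2.39-fold higher than input (log2 1.26 ± 0.23, adjusted p = 0.00262) and above the PABP1 IP by 1.51 ± 0.26 (adjusted p = 0.0015), and the PABP1 IP over input was −0.26 ± 0.26 (adjusted p = 0.422).

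Bcl2l11 probe A_51_P484880 had the PABP1 IP highest. Its levels were −2.68, −2.80 and −3.16 in the GFP IP, −1.16 and −1.20 in the PABP1 IP and −4.01, −3.60 and −3.94 in input, where no array was above background. The PABP1 IP was at least 4.55-fold and the GFP IP at least 1.40-fold higher than input. The fitted differences, which used input signals not above background, were 2.67 ± 0.19 (limma, adjusted p = 4.26e-05) and 0.97 ± 0.17 (adjusted p = 0.00227). The GFP IP was below the PABP1 IP by −1.70 ± 0.19 (adjusted p = 0.000196). Probe A_52_P348214, which carries another accession, was above background in the PABP1 IP alone, at −2.92 and −3.01, with −4.97 to −5.54 in the GFP IP and −4.37 to −4.53 in input. There the PABP1 IP was at least 1.32-fold higher than input and the GFP IP at least 2.18-fold lower than the PABP1 IP, given without a p because this probe, like those of Bad, entered the test through the PABP1 IP alone.

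A_51_P484880 and A_52_P158527 carry the same Bcl2l11 accession. The log2 ratio of the first to the second averaged −3.23 in the GFP IP (−3.40 to −2.92), −0.01 in the PABP1 IP (−0.25 and 0.23) and −2.94 in input (−3.29 to −2.62), where the first probe was not above background. The GFP IP differed from the PABP1 IP by −3.22 (exact two-sided permutation p = 0.1, the smallest possible), with no overlap. Between GFP IP and input the difference was −0.29 (exact permutation p = 0.3). Averaging the 3 probes gave a Bcl2l11 value for the GFP IP over the PABP1 IP of −0.83, against 1.51 from A_52_P158527.

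**Figure D4:**
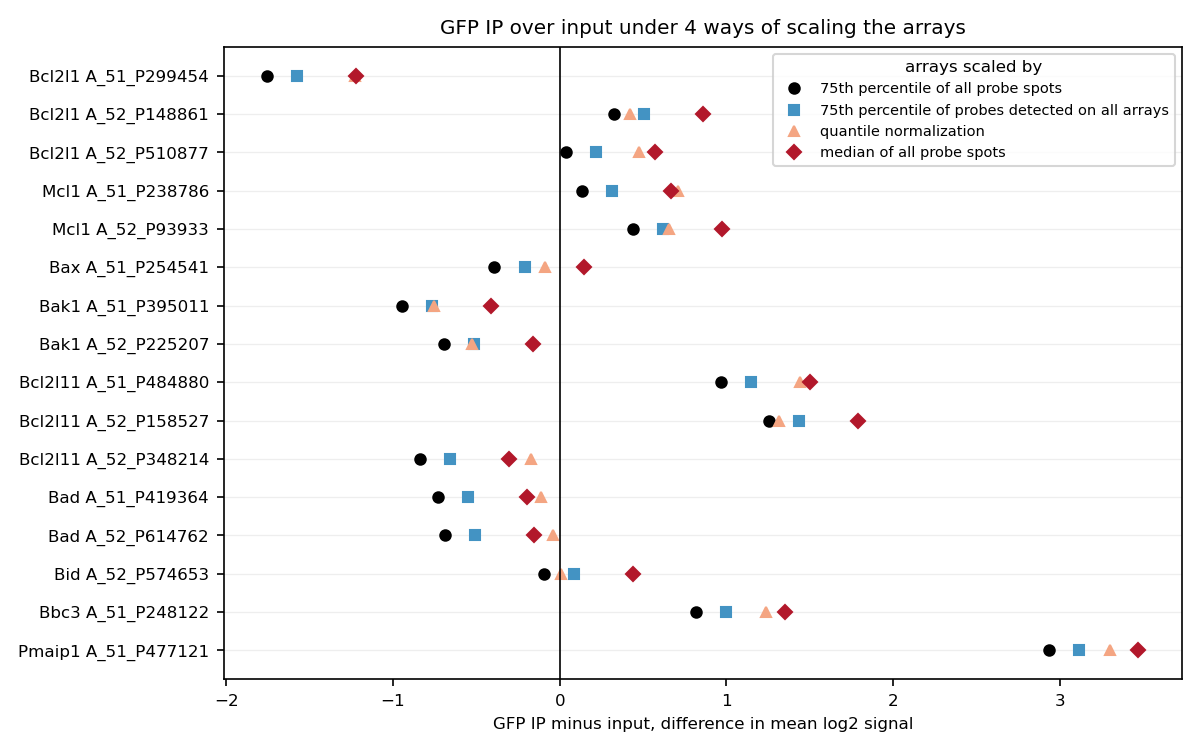
Difference between GFP IP and input (x axis, log2) of the 16 tested BCL2 family probes (rows) when arrays were scaled by the 75th percentile of all probe spots, by that percentile over the probes detected on all arrays, by quantile normalization or by the median of all probe spots. Bax moves from −0.39 to 0.14 and Bid from −0.09 to 0.44 between the first and the last, while Pmaip1 stays between 2.94 and 3.47.

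Relatives outside these 10 genes were counted on a list of 15, of which 12 were on the array and 10 had a tested probe. Of its 14 tested probes, 3 were higher and 2 lower in the GFP IP than in input, 9 higher and 1 lower in the PABP1 IP than in input, and 1 higher and 9 lower in the GFP IP than in the PABP1 IP. The shares of all tested probes were 24.2% higher and 39.1% lower, 34.5% and 25.9%, and 26.6% and 43.7% in the same order. The medians were −0.10, 1.07 and −0.84, beside −0.38, 0.22 and −0.52 over all tested probes. Of the 14 probes, 2 had passed the filter through the PABP1 IP alone. Bnip3, which encodes a mitophagy receptor, stood at 4.03, 4.25 and 4.33 in the GFP IP, 5.18 and 5.39 in the PABP1 IP and 2.60, 2.91 and 2.78 in input. Bnip3 was higher than input in the GFP IP (1.44 ± 0.14, adjusted p = 0.000155) and in the PABP1 IP (2.52 ± 0.16, adjusted p = 2.84e-05), and lower in the GFP IP than in the PABP1 IP (−1.08 ± 0.16, adjusted p = 0.000756). Its relative Bnip3l, on probe A_52_P13612, was likewise above input in the GFP IP (1.17 ± 0.22, adjusted p = 0.00292) and in the PABP1 IP (1.37 ± 0.25, adjusted p = 0.00233). Bcl2l14 probe A_52_P660100 was lower in the GFP IP than in input (−1.22 ± 0.36, adjusted p = 0.0198), while its probe A_51_P341336 differed by −0.32 ± 0.27 (adjusted p = 0.326). The survival gene Bcl2l2 was lower than input on probe A_52_P44 (−0.65 ± 0.13, adjusted p = 0.00394) and not past the threshold on A_51_P331318 (0.19 ± 0.10, adjusted p = 0.149).

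Against the PABP1 IP, Bcl2l2 probe A_52_P44 had the largest difference on that list. It stood at −2.17, −2.02 and −2.38 in the GFP IP, against 0.70 and 0.57 in the PABP1 IP (−2.82 ± 0.15, adjusted p = 1.17e-05). Its other probe differed by −0.88 ± 0.12 (adjusted p = 0.000417). The pore former Bok was lower by −1.36 ± 0.18 (adjusted p = 0.00037), Bcl2l14 probe A_52_P660100 by −1.47 ± 0.40 (adjusted p = 0.0129), and Hrk, a BH3-only gene above background in the PABP1 IP alone, through which it entered the test, was at least 1.41-fold lower.

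The step after the pore, together with p53 and regulators of MCL1 turnover, was a list of 18 genes, 17 with a tested probe. Of its 27 tested probes, 9 were higher and 10 lower in the GFP IP than in input, 11 higher and 8 lower in the PABP1 IP than in input, and 12 higher and 11 lower in the GFP IP than in the PABP1 IP. Those counts stand beside the same shares of all tested probes as for the relatives. The medians were 0.25, 0.58 and −0.02, beside −0.38, 0.22 and −0.52 over all tested probes. Of the 27 probes, 4 had passed the filter through the GFP IP alone, and of the other 23, 8 were higher and 11 lower in the GFP IP than in the PABP1 IP. Cycs, the cytochrome c gene, stood at 4.22, 3.90 and 4.19 in the GFP IP, against 6.68 and 6.80 in the PABP1 IP (−2.64 ± 0.16, adjusted p = 1.68e-05).

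Xiap, which encodes a caspase inhibitor, was above background in the GFP IP alone on probe A_52_P933175, at −2.63, −2.33 and −2.34. It was at least 1.91-fold higher than input and at least 3.00-fold higher than the PABP1 IP, bounds without a p, since the probe entered the test through the GFP IP alone. Fbxw7, part of a ubiquitin ligase for MCL1, stood at 0.28, 0.21 and 0.16 in the GFP IP, against −2.66 and −2.61 in the PABP1 IP (probe A_52_P101184, 2.85 ± 0.17, adjusted p = 1.52e-05). Huwe1, the gene of another MCL1 ligase, had −2.85, −1.38 and −1.80 in the GFP IP, against 1.39, 1.83 and 1.48 in input (probe A_52_P205282, −3.58 ± 0.36, adjusted p = 0.000158). On the same probe no PABP1 IP array was above background, and the GFP IP was at least 4.01-fold higher than the PABP1 IP. The fitted difference, which used PABP1 IP signals not above background, was 2.67 ± 0.40 (limma, adjusted p = 0.000786).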

How the data were processed

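Each sample was hybridised to a 1-colour Agilent array. Feature Extraction 9.1.3.1 made the authors' intensity values, per the file headers; it subtracted background, removed spatial trends and replaced dim intensities by a surrogate, and other deposited values flag spots above background, saturated spots and outliers. The authors' deposited table of group mean intensities was scaled in a way not given in the sources used here, and it served as an alternative for members matched by accession.

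Processed intensity was taken to log2, and arrays were aligned by subtracting the 75th percentile of their 43379 probe spots. A probe's spots were averaged, outliers left out, to give 41174 probes, of which 30 were left out for want of a usable spot on some array. A probe was tested if well above background, in at least 0.5 of its spots, on all arrays of at least 1 group; 20625 were. Group means of the 8 arrays were fitted with lmFit and eBayes of limma 3.58.1 (R 4.3.3; 5 residual and 2.17 prior degrees of freedom), which gave two-sided p-values, adjusted by Benjamini-Hochberg over all tested probes, with a threshold of 0.05. The fit alone was tried on simulated data. Those data had independent noise and neither a slide effect nor a scaling step, so the trial does not bear on either. Tested probes outside the family were named through RefSeq accessions (15019), symbols (2560) and synonyms (1273), while 1773 kept the array's name.

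The members and lists were chosen with earlier results of these data known. All probes of the 10 members are described; from each of the 2 other lists, at most 4 genes per comparison were named by size of difference among those past the threshold. Since no label says that the arrays of a group stem from separate cultures, p-values may reflect technical spread alone. The number of arrays limits precision. Replicate numbers were not used to pair samples in the main fit. Deviations of same-numbered arrays from their group means correlated at −0.714 to 0.570 over 7 pairs. Same-slide arrays of different groups correlated at 0.417 to 0.740, and those on different slides at −0.740 to −0.242. The sign followed the slide for same-numbered arrays too, so these correlations cannot decide whether the numbers pair samples. Other scalings, background correction by normexp with an offset of 50, filters, probe rules, slide and array weights, and leaving out each array were tried. Figures used matplotlib 3.10.9 in Python 3.11.15. Probe sequences and genome positions were not used here.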

Additional observations from a re-analysis of the deposited data

How the results depend on the processing

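Of 48 member tests (16 probes, 3 comparisons), 33 passed the threshold. Over all tested probes, 24.2% were higher and 39.1% lower for the GFP IP over input. The shares were 34.5% and 25.9% for the PABP1 IP over input, and 26.6% and 43.7% for the GFP IP over the PABP1 IP. The 33 include calls of 4 probes that had passed the filter through the PABP1 IP alone. Of the 33, 8 kept their direction and their call under each alternative that gave them a value: Pmaip1 for the GFP IP over input and over the PABP1 IP, Bax and Bid for the PABP1 IP over input and the GFP IP over the PABP1 IP, Mcl1 A_52_P93933 for the PABP1 IP over input and Bak1 A_51_P395011 for the GFP IP over the PABP1 IP. The authors' deposited table gave no value for these Mcl1 and Bak1 probes, and the brightest and the mean probe per gene gave none for Mcl1 A_52_P93933. The causes of the changes below were not tested, except that fewer probes enter where a filter or 1 value per gene is used. With normexp, the offset of 50 by itself shrinks the log2 differences of dim probes, but calls of bright probes such as that of Bbc3 were lost too. Each slide alone leaves 1 residual degree of freedom, and where 1 PABP1 IP array is left out, the other is assumed to vary like the other groups.

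The GFP IP over input gave 5 higher and 6 lower family probes. The lower count was 1 with median scaling, 2 after quantile normalization, 3 with probes detected on all arrays only, 3 with the brightest probe per gene and 3 within slide 2. With normexp background correction it was 0 (limma; also 0 at an unadjusted p under 0.05), and Pmaip1 was the 1 probe called higher. The higher count was 3 with the brightest probe. Over all probes, 4985 higher and 8068 lower became 864 and 1138 with normexp, 3887 were lower with median scaling, and 3116 and 3217 were higher with the brightest and the mean probe per gene.

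The PABP1 IP over input gave 8 higher and 1 lower. The higher count was 3 with normexp, 5 with probes detected on all arrays only and 4 with the brightest probe. The lower count was 0 with median scaling, normexp, no filter on dim probes, the mean of a gene's probes and within slide 1, was 2 with the percentile over detected probes, array weights and slide as a block, and was 0 to 1 with each array left out. At an unadjusted p under 0.05 (limma), these counts of 0 were 1 with no filter on dim probes and without input replicate 1 or 2, and 0 otherwise. Over all probes, 7113 higher and 5343 lower became 2336 and 967 with normexp.

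The GFP IP over the PABP1 IP gave 3 higher and 10 lower. The lower count was 3 with normexp, 5 with probes detected on all arrays only, 4 with the brightest and 6 with the mean probe, where 1 was higher. Over all probes, 5480 higher and 9010 lower became 1617 and 3846 with normexp, and 3466 and 3467 were higher with the brightest and the mean probe.

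Signs also turned as follows. For the GFP IP over input, Bax was 0.14 with median scaling and 0.11 in the authors' deposited table. Bid was 0.44 with median scaling, 0.01 (0.0085) after quantile normalization, 0.09 (0.087) when detected probes set the percentile, 0.04 (0.041) with slide as a block, 0.12 within slide 2, −0.24 to 0.02 (0.020) with each array left out and 0.53 in the authors' deposited table. Bcl2l1 A_52_P510877 was −0.13 with normexp, −0.04 (−0.042) with the slide block, −0.05 (−0.046) within slide 1, −0.04 (−0.043) within slide 2 and −0.12 to 0.12 with each array left out. Bcl2l1 as the mean of its probes was −0.46, against 0.33 for A_52_P148861. Bad A_52_P614762 was 0.18 within slide 1 and 0.19 in the authors' deposited table, and Bcl2l11 A_52_P348214 was 0.17 there.

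For the PABP1 IP over input, normexp gave −0.16 for Bad A_51_P419364, −0.12 for Bad A_52_P614762, −0.18 for Bcl2l11 A_52_P348214 and −0.32 for Bcl2l1 A_52_P510877, which was −0.05 (−0.052) with the percentile over detected probes. The mean of a gene's probes gave 0.46 for Mcl1 and 1.29 for Bcl2l11. Bcl2l11 A_52_P158527 was −0.52 to 0.00 (0.00031) with each array left out.

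For the GFP IP over the PABP1 IP, Bcl2l1 A_52_P148861 was 0.18 with median scaling and 0.15 with the percentile over detected probes, and Bcl2l1 A_52_P510877 was 0.30, 0.17, 0.27 and 0.19 with median scaling, quantile normalization, that percentile and normexp. Normexp gave −0.37 for Bbc3, 0.12 for Bcl2l1 A_51_P299454 and 0.04 (0.038) for Bcl2l11 A_52_P348214. The mean of a gene's probes gave −0.17 for Mcl1 and −0.83 for Bcl2l11. Bbc3 was −0.04 (−0.037) with array weights, whose estimation stopped before convergence, −0.14 within slide 1 and −0.10 to 0.09 (0.086) with each array left out.

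With the replicate number as a block the family counts were 5 higher and 5 lower, 8 and 1, and 3 and 10 in the same order of comparisons. The block ended the call of Bax for the GFP IP over input (−0.39, adjusted p = 0.0659) and changed no other call of the members. Signal over background limits Bcl2, Bad and probes of Bcl2l11 and Bcl2l1 to bounds or to no value.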
